A study of Homo sapiens with 6 samples.

Results

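Collagen chains are the gene products from which every collagen molecule is built, and 43 of the 20811 genes in the expression table carry the name of a collagen chain (COL, the collagen number, A and the chain number). All 43 were taken by that naming pattern, which uses no expression value. The libraries came from HuCCT1, an established human intrahepatic cholangiocarcinoma cell line, grown in RPMI with fetal bovine serum. HuCCT1/CD90+ cells had been transduced at an MOI of 40 with the lentivirus human THY1-CMV-GFP. By its name this vector carries THY1, the gene of the surface glycoprotein CD90. The sources do not say which insert the CMV promoter drives. HuCCT1/CD90- cells had been transduced at the same MOI with Lenti-CMV-GFP-2A-Puro-Blank, so both lines carry a lentivirus with GFP, and the control vector also names a puromycin cassette. The study compared what CD90 expression changes in these cells, and asked among other things how the cells behave on collagen. Each line was measured in 3 libraries by the Ion AmpliSeq transcriptome panel, which reads a single amplicon per gene. The sources do not say whether either line is a clone or a pool, nor whether the 3 libraries of a line came from separate cultures, so the p-values measure only the spread between these libraries, which may be technical.

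The unit is RPM, the reads of a gene scaled to the same library total. The reads assigned to genes numbered 9345680 to 10551516 per HuCCT1/CD90- library and 8587634 to 9327650 per HuCCT1/CD90+ library. On that scale 3 reads, taken as the floor of detection, correspond to 0.284 to 0.349 RPM. These floors cover counting error only. THY1 itself was at 0, 0.107 and 0 RPM in the HuCCT1/CD90- libraries and at 46.6, 51.8 and 73.8 RPM in the HuCCT1/CD90+ libraries, at least 179-fold higher (limma adjusted p = 0.00045), so each library matched its label. Of the markers of cell type, KRT7 and KRT19, the keratins of bile duct epithelium, ranged from 3042 to 4291 RPM in all 6 libraries.

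A collagen molecule is a triple helix of chains that are chosen and aligned in the endoplasmic reticulum, hydroxylated, secreted as procollagen and trimmed outside the cell. The fibrillar collagens (I, II, III, V, XI, XXIV and XXVII) form the banded fibrils of stroma. Collagen IV makes the network of basement membranes, collagen VI makes beaded microfibrils beside them, collagen VII makes the anchoring fibrils that tie epithelial basement membranes to the stroma, and collagen XVII is a transmembrane protein of hemidesmosomes. The FACIT collagens sit on fibril surfaces, the multiplexins XV and XVIII carry glycosaminoglycans, and collagen VIII forms hexagonal lattices. In liver and bile duct tumours most fibrillar collagen is made by stromal fibroblasts, whereas epithelial cells contribute mainly to the basement membrane.

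A gene was called changed when limma, fitted to log2(RPM + 1) of all 20811 genes, gave a Benjamini-Hochberg adjusted p no higher than 0.05 together with a change of 1.5-fold or more. By that rule 4 collagen chains were higher and 11 were lower in HuCCT1/CD90+, and 28 were not called. Over all genes 15.1% were called, 7.59% higher and 7.49% lower. Where the mean reached 1 RPM, as it did for 19 of the chains, the called share was 24.1% of genes, 12.0% higher and 12.1% lower, and 3 of the 19 chains were called higher and 9 lower. All 3 libraries of a line lay above all 3 of the other for 5 chains in HuCCT1/CD90+ and for 12 chains in HuCCT1/CD90-, where 35.0% of all genes were separated in either direction. By unadjusted p the counts were 4 higher and 12 lower, beside 20.1% of all genes. The median log2 fold change over the 43 chains was -0.04, with the median of all genes at 0. It was -0.50 over the 27 chains that had more than 3 reads in at least 1 library, and -0.01 over all genes above that floor. COL1A2, COL3A1, COL6A3 and COL21A1 passed that floor through HuCCT1/CD90- alone, and COL4A3 and COL24A1 through HuCCT1/CD90+ alone. The change itself thus helped decide which chains this median covers, and it is given as a description. The chains called higher were COL4A4, COL8A1, COL17A1 and COL4A3, and those called lower were COL5A2, COL7A1, COL18A1, COL12A1, COL6A1, COL6A3, COL4A6, COL4A1, COL4A5, COL3A1 and COL1A2. With the replicate number as a block, the calls were 3 higher and 7 lower, beside 10.1% of all genes.

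**Figure D1:**
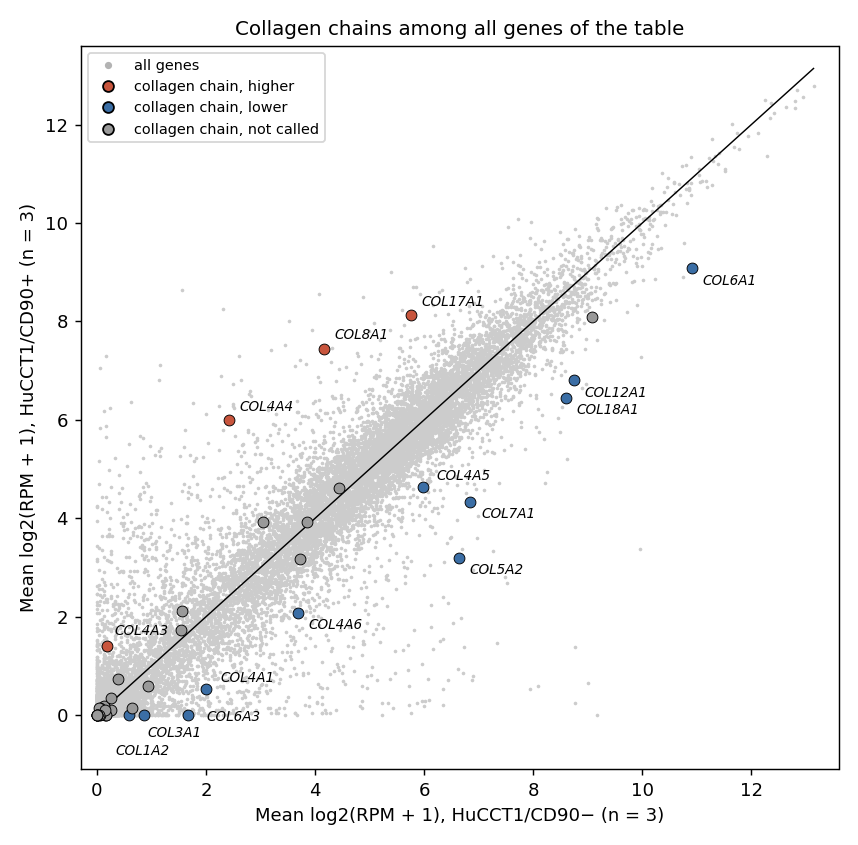
Mean log2(RPM + 1) of each gene in HuCCT1/CD90- (horizontal axis) and HuCCT1/CD90+ (vertical axis), 3 libraries each. Small grey points are all genes, large points are the collagen chains coloured by call, and the line marks equal levels. The chains called lower, among them COL6A1, COL12A1 and COL18A1, lie below the line, and COL17A1, COL8A1, COL4A4 and COL4A3 lie above it.

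Of the 11 fibrillar chains, 3 were called lower, where 7.49% of all genes were, none was called higher, and 4 stayed at or under 3 reads in every library. COL5A2, a chain of the collagen V that sits inside collagen I fibrils and sets their diameter, was at 96.6, 101 and 97.7 RPM in HuCCT1/CD90- and at 9.86, 6.75 and 8.03 RPM in HuCCT1/CD90+. The lines were widely separated and the libraries within a line were close. The mean fell 12.0-fold, from 98.3 ± 2.07 to 8.22 ± 1.56 RPM (SD, n = 3 libraries each; log2 fold change -3.44, SE 0.13, limma adjusted p = 0.00066). COL5A2 gave the largest fall of any chain above 1 RPM in both lines. Its usual partner COL5A1 was at the floor in both lines, with 0, 2 and 1 reads against 0, 1 and 1.

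COL1A1, the main chain of collagen I, was at 15.5, 13.8 and 11.2 RPM in HuCCT1/CD90- and at 14.3, 14.0 and 14.3 RPM in HuCCT1/CD90+. The libraries overlapped, and the log2 difference was 0.08 with a 95% confidence interval from -0.25 to 0.41 (limma adjusted p = 0.82). The other collagen I chain, COL1A2, had 8, 3 and 5 reads in HuCCT1/CD90- and no read in HuCCT1/CD90+. Against the floor of 3 reads per library this was at least 1.49-fold lower, and the call (limma adjusted p = 0.031) rests on these few reads. COL3A1, the chain of the homotrimeric collagen III, showed the same arrangement with 9, 4 and 13 reads against none, at least 2.43-fold lower (limma adjusted p = 0.041). Both calls were lost with the replicate block, at limma adjusted p = 0.090 for COL1A2 and 0.10 for COL3A1. Both held in only 1 of the 6 fits that left out a library, the fit without HuCCT1/CD90- replicate 2. The adjusted p for COL1A2 was 0.097 to 0.11 in 4 of the others and 0.025, with a fold change under 1.5, without HuCCT1/CD90- replicate 1. The adjusted p for COL3A1 was 0.063 to 0.13 in the other 5. COL3A1 (chr2:188974320-189012746, plus strand) and COL5A2 (chr2:189031896-189225312, minus strand) are neighbours on GRCh38 with 19.1 kb between them, and both were lower.

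COL27A1, a fibrillar chain first known from cartilage, was at 21.7, 18.8 and 22.0 RPM and at 18.3, 26.3 and 26.6 RPM, and the libraries overlapped. Its log2 difference was 0.16 with an interval from -0.30 to 0.62 (limma adjusted p = 0.63). After COL5A2 it was therefore the most abundant fibrillar amplicon of the control line, and in HuCCT1/CD90+ it was the most abundant. COL11A2, with 7, 2 and 1 reads against 3, 12 and 4, and COL24A1, with 1, 0 and 2 reads against 0, 4 and 0, were not called. The level of an amplicon depends on how well it amplifies, so an order of chains within a library is an order of amplicon reads.

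**Figure D2:**
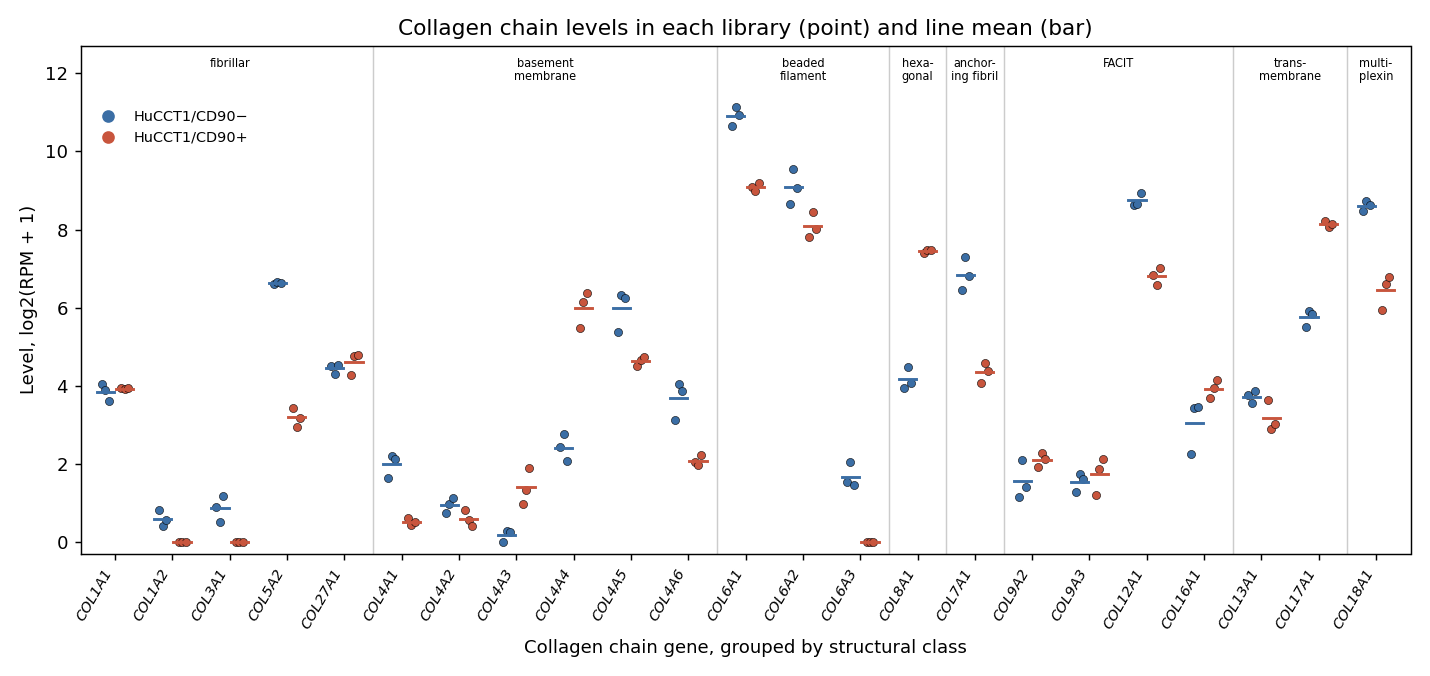
Level of each named collagen chain, as log2(RPM + 1), in each of the 6 libraries (points) with the mean of each line (bars), grouped by structural class. COL5A2, COL7A1, COL12A1, COL18A1 and COL6A1 show 2 separated groups of points with HuCCT1/CD90- (blue) on top, COL8A1, COL17A1 and COL4A4 show them with HuCCT1/CD90+ (red) on top, and COL1A1 and COL27A1 overlap.

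Collagen IV is encoded by 6 genes that lie as head-to-head pairs, each pair sharing the stretch between its start sites. COL4A1 and COL4A2 assemble the ubiquitous network, while COL4A3 and COL4A4 with COL4A5, and COL4A5 with COL4A6, assemble the networks found in selected epithelia such as the kidney glomerulus and the bronchial and duct linings. The pairs moved in different directions here. Both COL4A3 and COL4A4 were called higher, and both COL4A5 and COL4A6 were called lower. COL4A1 was called lower, and COL4A2 had a lower mean without a call. With the replicate block only COL4A4 kept its call. COL4A3, COL4A5 and COL4A6 each kept theirs in 1 of the 6 fits that left out a library.

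COL4A4 (chr2:227002711-227164453, minus strand, GRCh38) was at 4.36, 5.78 and 3.20 RPM in HuCCT1/CD90- and at 43.7, 69.3 and 82.3 RPM in HuCCT1/CD90+. The lowest HuCCT1/CD90+ library stood well above the highest control. The mean rose 14.6-fold, from 4.45 ± 1.29 to 65.1 ± 19.6 RPM (SD, n = 3 each; log2 fold change 3.58, SE 0.32, limma adjusted p = 0.0043), the largest fold among the chains above the floor in both lines. COL4A3, on the plus strand next to it (chr2:227164565-227314792), had 0, 2 and 2 reads in HuCCT1/CD90- and 9, 13 and 25 in HuCCT1/CD90+, or 1.73 ± 0.894 RPM, at least 5.39-fold higher. Its limma adjusted p of 0.045 became 0.073 with the replicate block. It held without HuCCT1/CD90+ replicate 1 and became 0.055 to 0.13 when any other library was left out. COL4A4 reads thus outnumbered COL4A3 reads in every library.

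COL4A5 (chrX:108439844-108697545, plus strand) was at 40.6, 79.4 and 75.4 RPM in HuCCT1/CD90- and at 21.8, 24.1 and 25.5 RPM in HuCCT1/CD90+. COL4A6 (chrX:108155607-108439497, minus strand) was at 7.77, 15.4 and 13.7 RPM and at 3.11, 2.91 and 3.69 RPM. For both genes HuCCT1/CD90- replicate 1 was the lowest control and still lay above all HuCCT1/CD90+ libraries. COL4A5 was 2.74-fold lower (log2 fold change -1.36, SE 0.30, limma adjusted p = 0.044) and COL4A6 3.80-fold lower (log2 fold change -1.60, SE 0.27, limma adjusted p = 0.024). With the replicate block the limma adjusted p was 0.080 for COL4A5 and 0.076 for COL4A6. Without HuCCT1/CD90- replicate 1 the limma adjusted p was 0.0047 and 0.0065, and when any of the other 5 libraries was left out it was 0.11 to 0.13 for COL4A5 and 0.064 to 0.084 for COL4A6.

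COL4A1 (chr13:110148963-110307233, minus strand) had 22, 34 and 35 reads in HuCCT1/CD90- and 5, 3 and 4 in HuCCT1/CD90+, or 3.04 ± 0.835 against 0.440 ± 0.0936 RPM. It was 6.91-fold lower (log2 fold change -1.47, SE 0.18, limma adjusted p = 0.010, and 0.067 with the replicate block). COL4A2 (chr13:110305812-110513209, plus strand) had 7, 9 and 12 reads against 7, 4 and 3, and the libraries touched at 7 reads. Its log2 difference was -0.35 with an interval from -0.76 to 0.06 (limma adjusted p = 0.22). In every library COL4A5 reads thus outnumbered COL4A1 and COL4A2 reads, although the latter chains form the most widespread collagen IV.

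**Figure D3:**
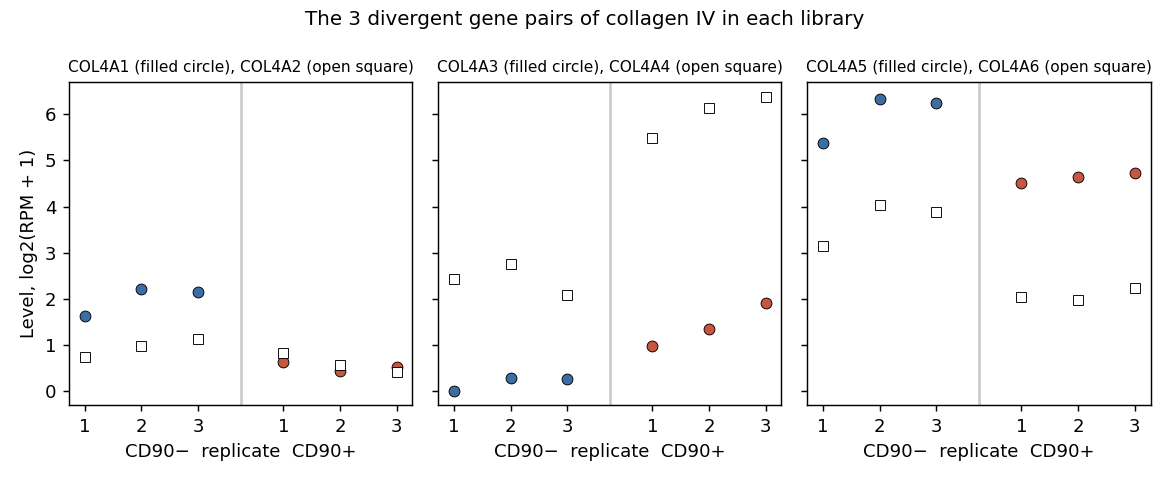
Level, as log2(RPM + 1), of the 2 genes of each head-to-head collagen IV pair in each library, HuCCT1/CD90- left and HuCCT1/CD90+ right of the grey line in each panel. COL4A3 and COL4A4 both sit higher on the right, COL4A5 and COL4A6 both sit lower, and COL4A1 drops to the level of COL4A2.

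In RefSeq the nearest start sites of these pairs are 127 bases apart for COL4A1 and COL4A2, 419 bases for COL4A3 and COL4A4, and 380 bases for COL4A5 and COL4A6 on GRCh38.p14. GENCODE places some of these start sites differently, so the gene bounds given above differ from those of RefSeq.

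The chains of the epithelial attachment sites moved apart. COL17A1 (chr10:104031286-104085957, minus strand), the hemidesmosomal collagen also known as BP180, was at 44.6, 58.7 and 56.4 RPM in HuCCT1/CD90- and at 296, 267 and 281 RPM in HuCCT1/CD90+. All HuCCT1/CD90+ libraries were above all controls and close to each other. The mean rose 5.29-fold, from 53.2 ± 7.55 to 281 ± 14.6 RPM (SD, n = 3 each; log2 fold change 2.39, SE 0.12, limma adjusted p = 0.0012).

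COL7A1 (chr3:48564073-48595267, minus strand), the only chain of the anchoring fibrils, was at 86.0, 155 and 111 RPM in HuCCT1/CD90- and at 15.7, 22.9 and 19.9 RPM in HuCCT1/CD90+. The controls spread more than the HuCCT1/CD90+ libraries, but the lowest control was well above the highest of them. The mean fell 6.02-fold, from 117 ± 34.9 to 19.5 ± 3.66 RPM (log2 fold change -2.50, SE 0.27, limma adjusted p = 0.0075). COL17A1 was thus lower than COL7A1 in each control library and higher than COL7A1 in each HuCCT1/CD90+ library.

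Bases before the RefSeq start sites of COL17A1 (chr10:104085958-104086130, minus strand) and COL7A1 (chr3:48595330-48595579, minus strand) are shown because these epithelial chains changed in opposite directions. They end where the first exon annotated in GENCODE or RefSeq begins. Capitals mark the TATA box (TATAAA), the CCAAT box (CCAAT) and the GC box (GGGCGG) on either strand.
COL17A1: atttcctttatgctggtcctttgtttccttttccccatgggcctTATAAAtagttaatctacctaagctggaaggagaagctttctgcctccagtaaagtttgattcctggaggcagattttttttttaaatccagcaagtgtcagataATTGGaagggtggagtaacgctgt
COL7A1: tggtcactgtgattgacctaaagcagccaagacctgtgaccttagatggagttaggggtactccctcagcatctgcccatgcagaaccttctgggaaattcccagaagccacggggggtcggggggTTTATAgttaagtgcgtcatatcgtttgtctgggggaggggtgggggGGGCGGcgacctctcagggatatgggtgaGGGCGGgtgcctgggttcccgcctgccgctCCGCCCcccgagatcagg
Both windows hold a TATA box match, on the gene's strand in COL17A1 and on the other strand in COL7A1. COL7A1 holds 3 GC boxes, and none is in the stretch printed for COL17A1.

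A RefSeq window of 250 bases before the start site was found for 31 of the 43 chains. On either strand the TATA box was found in 22.6% of those chains and in 13.0% of all genes with a window, the CCAAT box in 35.5% and 37.0%, the GC box in 67.7% and 46.2%, the E-box of the letters CACCTG, which repressors such as SNAI1 and ZEB1 can bind, in 16.1% and 20.6%, and the AP-1 site TGANTCA in 3.23% and 8.06%. Of the called chains 3 higher and 7 lower had a window, and COL1A2, COL3A1, COL5A2, COL6A1 and COL8A1 had none. Among those with a window the TATA box was found before COL17A1, COL18A1 and COL7A1. The CCAAT box was found before COL17A1, COL4A1, COL4A5 and COL4A6. The GC box stood before COL12A1, COL18A1, COL4A1, COL4A3, COL4A6 and COL7A1, the E-box before COL4A3 and COL4A4, and the AP-1 site before none. Windows of a head-to-head collagen IV pair can overlap, so the same site can count for both genes. The TATA box matches thus stand before chains called in both directions. A match is a description of letters and no measure of binding.

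The beaded filament collagen VI supplied the most collagen reads in both lines. COL6A1 (chr21:45981737-46005050, plus strand) was at 1609, 2252 and 1951 RPM in HuCCT1/CD90- and at 542, 503 and 579 RPM in HuCCT1/CD90+. The groups did not overlap, and the mean fell 3.58-fold, from 1937 ± 322 to 541 ± 38.1 RPM (SD, n = 3 each; log2 fold change -1.83, SE 0.14, limma adjusted p = 0.0032). COL6A3, the large chain that joins COL6A1 and COL6A2 in the collagen VI molecule, had 20, 29 and 18 reads in HuCCT1/CD90- and none in HuCCT1/CD90+, which is at least 6.44-fold lower (limma adjusted p = 0.0064).

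COL6A2 (chr21:46098097-46132849, plus strand), which starts 93.0 kb beyond the end of COL6A1, was at 404, 748 and 529 RPM in HuCCT1/CD90- and at 222, 350.5 and 259 RPM in HuCCT1/CD90+. The groups did not overlap, and in both lines replicate 2 was the highest and replicate 1 the lowest. The mean was 2.02-fold lower, at 560 ± 174 against 277 ± 66.2 RPM, with a log2 difference of -0.99 and an interval from -1.81 to -0.18, but it was not called (limma adjusted p = 0.10). With the replicate block it was called (limma adjusted p = 0.027), and also by limma when genes averaging under 1 RPM were left out (adjusted p = 0.0059), edgeR with a filter on low counts (adjusted p = 0.00034) and DESeq2 (adjusted p = 1.5e-05). COL6A5 and COL6A6, which can replace COL6A3, had no read in any library.

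Of the 10 FACIT chains 1 was called, no larger a share than the 15.1% of all genes, and 5 stayed at or under 3 reads in every library. COL12A1 (chr6:75084326-75206051, minus strand), which coats collagen I fibrils, was at 397, 404 and 492 RPM in HuCCT1/CD90- and at 112, 94.1 and 129 RPM in HuCCT1/CD90+. The groups were far apart, and the mean fell 3.86-fold, from 431 ± 52.9 to 112 ± 17.3 RPM (log2 fold change -1.94, SE 0.15, limma adjusted p = 0.0032). Around it on chromosome 6 the 50 nearest genes had a median change of -0.34 (log2), and with that median removed COL12A1 was still lower by -1.61 (limma adjusted p = 0.0054).

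COL16A1, another FACIT chain, was at 3.79, 9.74 and 9.90 RPM in HuCCT1/CD90- and at 11.9, 14.4 and 16.6 RPM in HuCCT1/CD90+. The groups did not overlap, but HuCCT1/CD90- replicate 1 lay far below the other controls. The log2 difference was 0.88 with an interval from -0.16 to 1.93 and was not called (limma adjusted p = 0.23). Without HuCCT1/CD90- replicate 1 it was 0.49 (limma adjusted p = 0.16). COL16A1 was called by limma when genes averaging under 1 RPM were left out (adjusted p = 0.027), edgeR with a filter (adjusted p = 0.014) and DESeq2 (adjusted p = 0.013). COL9A2, at 2.07 ± 1.10 against 3.33 ± 0.529 RPM, and COL9A3, at 1.94 ± 0.474 against 2.44 ± 1.06 RPM, were not called (limma adjusted p = 0.30 and 0.81). COL21A1 had 10, 6 and 2 reads against 1, 0 and 2 and was not called either (limma adjusted p = 0.21).

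COL18A1 (chr21:45405137-45513720, plus strand), the basement membrane multiplexin whose C-terminal fragment is endostatin, was at 354, 421 and 391 RPM in HuCCT1/CD90- and at 60.3, 96.4 and 109 RPM in HuCCT1/CD90+. HuCCT1/CD90+ replicate 1 was the lowest of all, and the groups did not overlap. The mean fell 4.38-fold, from 389 ± 33.2 to 88.7 ± 25.5 RPM (log2 fold change -2.16, SE 0.25, limma adjusted p = 0.0090). COL18A1 lies 468 kb before COL6A1 on chromosome 21, and both were lower. The other multiplexin, COL15A1, was at the floor in both lines.

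COL8A1 (chr3:99638475-99799226, plus strand), the chain of the hexagonal lattices best known from corneal and vascular membranes, was at 14.3, 21.2 and 15.9 RPM in HuCCT1/CD90- and at 168, 176 and 179 RPM in HuCCT1/CD90+. The HuCCT1/CD90+ libraries were within a narrow range and far above the controls. The mean rose 10.2-fold, from 17.1 ± 3.60 to 174 ± 5.70 RPM (log2 fold change 3.29, SE 0.15, limma adjusted p = 0.00096). The median of the 50 nearest genes on chromosome 3 was 0.51, and with it removed COL8A1 was still higher by 2.78 (limma adjusted p = 0.0014). Its partner COL8A2 had no read in any library.

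COL13A1, a transmembrane collagen of focal contacts and the neuromuscular junction, was at 12.5, 10.7 and 13.5 RPM in HuCCT1/CD90- and at 11.4, 6.40 and 7.05 RPM in HuCCT1/CD90+. The groups overlapped through HuCCT1/CD90+ replicate 1. The log2 difference was -0.54 with an interval from -1.17 to 0.08 and was not called (limma adjusted p = 0.21), but it was without HuCCT1/CD90+ replicate 1 (-0.77, limma adjusted p = 0.043).

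**Figure D4:**
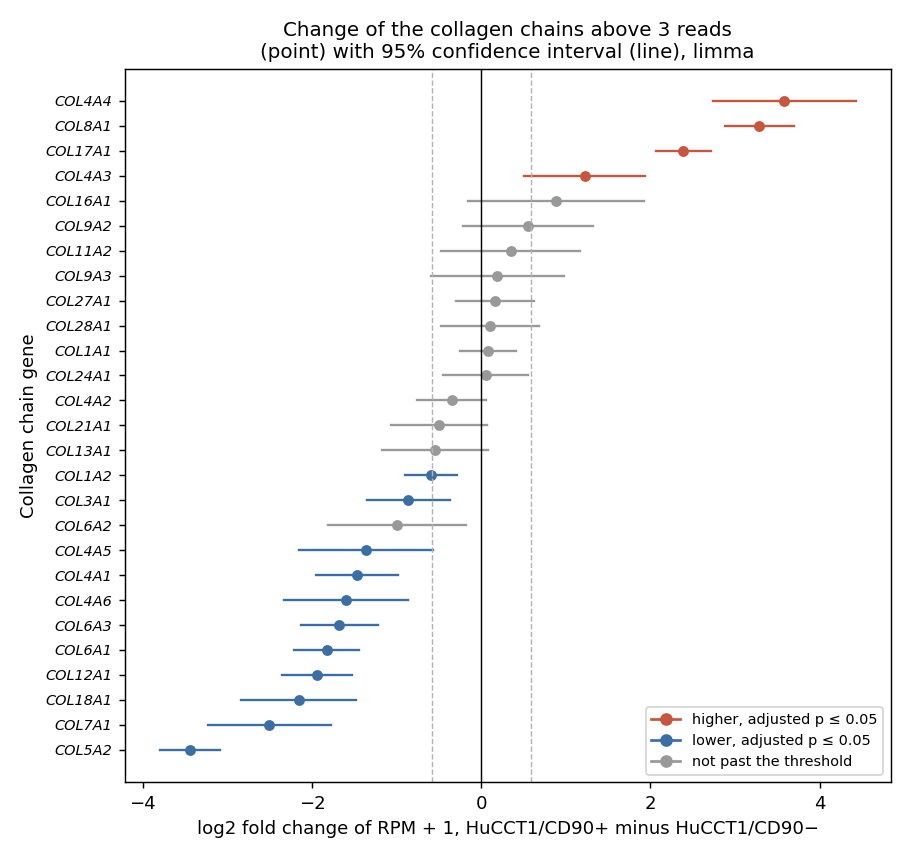
Log2 fold change of RPM + 1, HuCCT1/CD90+ minus HuCCT1/CD90-, with the 95% confidence interval from limma, for the 27 chains with more than 3 reads in at least 1 library. Colours mark the calls and dashed lines a 1.5-fold change. COL4A4, COL8A1 and COL17A1 are at the top with values of 3.58, 3.29 and 2.39, and COL5A2 and COL7A1 at the bottom with -3.44 and -2.50. COL6A2, COL16A1, COL13A1, COL21A1, COL9A2, COL11A2, COL9A3, COL4A2, COL28A1 and COL27A1 have intervals that reach past a dashed line without a call.

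The remaining chains gave little or no signal. At or under 3 reads in every library were 16 chains, of which COL6A5, COL6A6, COL8A2, COL9A1, COL19A1 and COL22A1 had no read at all and COL2A1, COL5A1, COL5A3, COL10A1, COL11A1, COL14A1, COL15A1, COL20A1, COL23A1 and COL25A1 had a few. A change in these was not detectable at this depth. COL28A1, with 0, 2 and 4 reads against 5, 3 and 0, was just above that floor and not called.

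Partner chains of a molecule were also compared within each library, as the log2 ratio of their RPM + 1, for the 6 of 10 pairs in which each chain had more than 3 reads in every library of at least 1 line. COL1A1 with COL1A2 was not among them, since COL1A2 had only 3 reads in a control library. With 3 libraries per line the two-sided exact permutation test cannot give a p below 0.1. That test did not pair the libraries by replicate number. The COL6A1 to COL6A2 ratio was 1.99, 1.59 and 1.88 in HuCCT1/CD90- and 1.28, 0.52 and 1.16 in HuCCT1/CD90+, a difference of -0.83 without overlap (exact p = 0.1, adjusted p = 0.15). The COL6A1 to COL6A3 ratio was 9.23 ± 0.21 against 9.08 ± 0.10, but since COL6A3 was at 0 in HuCCT1/CD90+ this difference depends on the pseudocount and turned from -0.15 to 2.68 with 0.1 RPM in place of 1 RPM.

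For COL4A1 with COL4A2 and for COL4A3 with COL4A4 the ratio is largely set by the pseudocount, since both COL4A1 and COL4A2 were near the floor in HuCCT1/CD90+ and COL4A3 was at the floor in HuCCT1/CD90-. The difference of the COL4A1 to COL4A2 ratio was -1.12, but -1.74 with a pseudocount of 0.1 RPM and -0.45 with 5 RPM. That of the COL4A3 to COL4A4 ratio was -2.36, but -0.82 with 0.1 RPM and -2.48 with 5 RPM, so no order is read from either. The COL4A5 to COL4A6 ratio went from 2.31 ± 0.07 to 2.55 ± 0.12 (exact p = 0.1, adjusted p = 0.15), a difference of 0.24 that turned to -0.19 with 5 RPM. The COL9A2 to COL9A3 ratio differed by 0.36 (exact p = 0.2, adjusted p = 0.24).

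Summed over the 43 chains, the libraries held 3124, 4330 and 3806 RPM of collagen amplicon reads in HuCCT1/CD90- and 1557, 1686 and 1751 RPM in HuCCT1/CD90+. The sum was 2.25 times as high in HuCCT1/CD90-, and without the collagen VI chains it was 1.48 times as high. The chains with a lower mean lost 2549 RPM together, of which COL6A1 made up 54.8% and COL6A1, COL12A1, COL18A1 and COL6A2 together 90.2%. The chains with a higher mean gained 460 RPM, of which COL17A1 and COL8A1 made up 83.7%. COL6A1 and COL6A2 took 64.4% to 69.3% of the collagen reads in the control libraries and 47.9% to 50.6% in HuCCT1/CD90+. COL17A1, COL8A1 and COL4A4 took 1.98% to 2.03% and 30.4% to 32.6%.

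By class the sums were lower in HuCCT1/CD90+ for the beaded filament (2500 against 818 RPM), FACIT (444 against 132 RPM), multiplexin (389 against 88.8 RPM), fibrillar (135 against 47.2 RPM) and anchoring fibril chains (117 against 19.5 RPM), and higher for the transmembrane (65.6 against 290 RPM) and hexagonal network chains (17.2 against 174 RPM). The basement membrane sum overlapped, at 55.4, 105 and 97.0 RPM in the controls and 70.9, 98.6 and 115 RPM in HuCCT1/CD90+, although 5 of its 6 chains were called (beside 15.1% of all genes), a count that falls to 1 of 6 with the replicate block. In that class the mean of COL4A5 went from 65.1 to 23.8 RPM and that of COL4A4 from 4.45 to 65.1 RPM. These sums carry no test, and a few abundant amplicons set them.

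**Figure D5:**
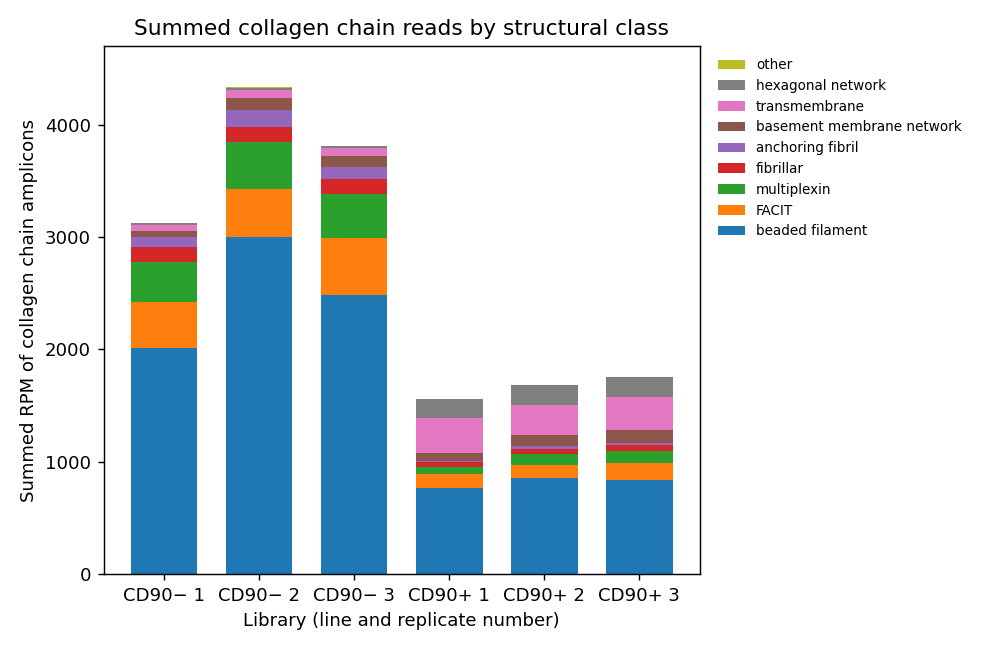
Summed RPM of the collagen chain amplicons in each library, stacked by structural class. The 3 HuCCT1/CD90- bars reach 3124 to 4330 RPM and the 3 HuCCT1/CD90+ bars 1557 to 1751 RPM, with a smaller beaded filament block and larger transmembrane and hexagonal network blocks.

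Of 51 genes that make, trim, crosslink, bind or degrade collagen, 5 were called higher and 14 lower, where 7.59% and 7.49% of all genes were. The median log2 fold change was -0.13, and -0.43 over the 42 of them above the floor, which ADAMTS2 passed through HuCCT1/CD90- alone. Of these 19 calls 10 held in each of the 6 fits that left out a library. Among the 34 genes of biosynthesis and processing, 4 were higher and 10 lower. ADAMTS2, the N-proteinase that trims procollagens I, II and III, was at 29.9, 54.5 and 38.2 RPM in HuCCT1/CD90- and at 0.214, 0.349 and 0 RPM in HuCCT1/CD90+. At no more than 3 reads per HuCCT1/CD90+ library it was at least 117-fold lower (log2 fold change -5.11, limma adjusted p = 0.0012). CREB3L1, a transcription factor that activates procollagen genes, was at 24.5 ± 8.74 against 4.46 ± 1.15 RPM, 5.49-fold lower (limma adjusted p = 0.021, but 0.096 with the replicate block and 0.016 to 0.076 with a library left out). PXDN, the peroxidase that forms the sulfilimine crosslinks of collagen IV, was at 3.32, 2.67 and 1.84 RPM and at 19.5, 18.7 and 23.4 RPM, 7.87-fold higher (limma adjusted p = 0.0026).

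The other genes of biosynthesis and processing called higher were P4HB, MIA2 and LOXL3, and those called lower were PLOD1, LEPRE1, LEPREL2, CRTAP, SERPINH1, TLL1, LOXL1 and LOXL2. The calls of MIA2, LOXL3 and LOXL1 were lost with the replicate block (limma adjusted p = 0.077, 0.077 and 0.0505), and LOXL4 was called with it (limma adjusted p = 0.046). Of the 6 fits that left out a library, LOXL2 kept its call in 1, MIA2 in 2, LOXL3 in 3, and TLL1 and LOXL1 in 4. LEPREL2, a prolyl 3-hydroxylase, had 33, 44 and 33 reads against 4, 2 and 2 (limma adjusted p = 0.0042). LEPRE1, the prolyl 3-hydroxylase that works in a complex with CRTAP, was 3.15-fold lower (limma adjusted p = 0.0021), and CRTAP itself 2.20-fold lower (limma adjusted p = 0.0044). The lysyl hydroxylase PLOD1 was 3.03-fold lower (limma adjusted p = 0.0060), and SERPINH1, the collagen chaperone HSP47, was 1.78-fold lower, at 373 ± 21.6 against 209.5 ± 4.80 RPM (limma adjusted p = 0.0018). P4HB, the shared subunit of the prolyl 4-hydroxylases and a general disulfide isomerase, was at 425 ± 37.0 against 677 ± 94.8 RPM (limma adjusted p = 0.033, and 0.048 to 0.098 with a library left out). The other hydroxylases P4HA1, P4HA2, P4HA3, LEPREL1, PLOD2 and PLOD3 were not called. P4HA2 was at 133 against 92.7 RPM without overlap, a change below 1.5-fold (limma adjusted p = 0.0085, and 0.045 with the replicate block). P4HA1 (85.8 against 51.7 RPM) and PLOD3 (21.3 against 39.5 RPM) were called by edgeR with a filter (adjusted p = 0.0013 and 0.0015) and by DESeq2 (adjusted p = 0.00022 and 0.00027), but not with the replicate block (limma adjusted p = 0.19 and 0.13), and PLOD3 not when the median of its neighbours was removed (limma adjusted p = 0.59). The genes given with values in this paragraph were chosen for their role after their values were seen.

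Of 11 collagen receptors 1 was called higher and 1 lower, a share close to the 15.1% of all genes. ITGA2, the α subunit of the epithelial collagen-binding integrin, was at 40.1, 56.8 and 63.4 RPM in HuCCT1/CD90- and at 165, 194 and 173 RPM in HuCCT1/CD90+, 3.32-fold higher (log2 fold change 1.73, limma adjusted p = 0.0083). MRC2 (Endo180), the receptor that takes up collagen for degradation, was at 104, 143 and 111 RPM and at 0.322, 0.815 and 1.19 RPM, 153-fold lower (log2 fold change -6.10, limma adjusted p = 0.00069). ITGB1, the β subunit that pairs with ITGA2, was at 27.8 ± 2.97 against 26.3 ± 5.90 RPM and was not called (limma adjusted p = 0.91). DDR1, a receptor tyrosine kinase for collagen, was at 80.4 ± 3.45 against 102 ± 6.07 RPM, a change below 1.5-fold (limma adjusted p = 0.024).

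Of the 6 collagenases and gelatinases 3 were called lower, where 7.49% of all genes were, and none was called higher. MMP1, which cleaves fibrillar collagen, was at 98.9, 167 and 174 RPM in HuCCT1/CD90- and at 8.68, 5.59 and 6.40 RPM in HuCCT1/CD90+, 21.2-fold lower (log2 fold change -4.20, limma adjusted p = 0.0023). MMP13 was at 6.54, 3.85 and 7.47 RPM and at 1.07, 0.349 and 0.434 RPM, 9.63-fold lower (limma adjusted p = 0.015, and 0.021 to 0.063 with a library left out). The third was MMP14, the membrane-bound collagenase, at 325 ± 94.0 against 137 ± 11.1 RPM (limma adjusted p = 0.032, but 0.078 with the replicate block and 0.032 to 0.11 with a library left out). The gelatinases MMP2 and MMP9 had at most 2 reads in any library.

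Some markers of cell types were also called, where 7.59% of all genes were called higher and 7.49% lower. Of 6 fibroblast and pericyte markers 3 were lower in HuCCT1/CD90+ (PDGFRB, LUM and DCN), and their summed level spanned 24.9 to 52.6 RPM over the control libraries and 6.22 to 10.4 RPM over the HuCCT1/CD90+ libraries. LUM lost the call in all 6 fits that left out a library (limma adjusted p = 0.057 to 0.13). DCN kept it in 1 of them and had a limma adjusted p of 0.086 with the replicate block. FAP, a defining fibroblast marker, had no read in HuCCT1/CD90- and PDGFRA had at most 0.388 RPM in any library. Of 6 epithelial markers 2 were higher (EPCAM and KRT18), with sums of 8199 to 9306 RPM and 10939 to 11677 RPM. Of 3 endothelial markers CDH5 was lower, with sums of 14.5 to 23.2 RPM and 0.643 to 1.51 RPM, while VWF had no read in HuCCT1/CD90-. Of 3 leukocyte markers CD68 was higher (50.8 against 92.2 RPM), while PTPRC had at most 1 read in any library. Of 3 hepatocyte markers APOA1 and SERPINA1 were lower (3.24 against 0.221 RPM and 1.65 against 0.224 RPM), while ALB had at most 1 read in any library. APOA1 kept the call in 1 of the 6 fits that left out a library, and SERPINA1 had a limma adjusted p of 0.071 with the replicate block. Their part in the collagen results was not tested, and in bulk libraries fewer cells of a kind and less RNA per cell cannot be told apart. The vector, its promoter cassette and the identity of the line also cannot be told apart from CD90 itself in this design.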

How the data were processed

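RNA of 6 HuCCT1 libraries (3 HuCCT1/CD90-, 3 HuCCT1/CD90+; groups and replicate numbers per the labels) was measured with the Ion AmpliSeq Transcriptome Human Gene Expression panel. Counting was done by the authors in the Torrent Suite (ampliSeqRNA plugin), and the deposited values are RPM, reads scaled to a common library total, for each gene; the submitters' processing notes name hg19 and the Transcriptome Analysis Console. The table holds no coordinates and no amplicon positions. Values were whole multiples of 1 read for 100% of genes in each library (tolerance 0.05 of a read plus rounding), so reads and depth were recovered. No column was left out (0).

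The main test was limma 3.58.1 in R 4.3.3 (default eBayes, two-sided, Benjamini-Hochberg) on log2(RPM + 1) of all 20811 genes, without a filter. The fold on this scale understates changes of low genes, so folds of means are given for RPM, with a bound of 3 reads where a line lay at or under that floor. Calls needed an adjusted p no higher than 0.05 and a change of 1.5-fold or more. Alternatives were pseudocounts of 0.1 and 5 RPM, a minimum mean of 1 RPM, quantile and median scaling, trend and robust eBayes, a fold change of 2, unadjusted p, removal of the median of the 50 nearest genes, the replicate block, each library left out, and count tests on the recovered reads with edgeR 4.0.16 and DESeq2 1.42.0. edgeR called 4200 of 12070 filtered genes and 4689 without a filter, and DESeq2 called 4236, against 3138 with limma. The scripts were tested on simulated data. Ratios used exact permutation tests (SciPy 1.17.1, Python 3.11.15).

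Same-numbered libraries of the lines deviated together from their line means (r = 0.209, 0.32 and 0.178, with other pairs at -0.294 to 0.0706). The replicate number was therefore used as a block in an alternative fit, from the data alone. The main fit and the ratio tests treated the libraries as unpaired. Deviations from a mean of 3 libraries depend on each other, so these correlations are weak grounds for a pairing. No library repeated another.

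Named are all called chains, chains with a mean of at least 10 RPM in a line, chains of partner pairs with reads, and of each machinery list the called gene that rose most and the 2 that fell most on the log2(RPM + 1) scale; genes beside these are given where they account for a list. The members and gene lists were chosen with earlier results of these data known. Gene positions are from GENCODE 29 (GRCh38) and windows before start sites from RefSeq (GRCh38.p14), both matched by symbol and not on the authors' build.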

Additional observations from a re-analysis of the deposited data

How the results depend on the processing

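No called chain changed sign in any other fit that included it (15 fits for COL1A2, COL3A1 and COL4A3, which the filters on low values leave out, and 17 for the others), and 10 of the 15 called chains kept their call in all 6 fits that left out a library; COL1A2, COL3A1, COL4A3, COL4A5 and COL4A6 lost it in at least 1. All 15 kept it with DESeq2 and with edgeR without a filter. The count of chains called lower, 11, was 7 with a pseudocount of 5 RPM, 7 with the replicate block and 7 to 9 with a library left out, reaching 7 without HuCCT1/CD90+ replicate 2, HuCCT1/CD90+ replicate 3 or HuCCT1/CD90- replicate 3, and 9 to 12 otherwise. The count called higher, 4, was 3 to 5 throughout, 3 with the replicate block and 3 to 4 with a library left out. The 19 machinery calls were 11 without HuCCT1/CD90- replicate 3, 11 to 17 with any library left out, and 15 to 23 otherwise. With the replicate block 9 of the 15 called chains kept the call, COL1A2, COL3A1, COL4A1, COL4A3, COL4A5 and COL4A6 lost it, COL6A2 gained it, and no other chain changed.

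Directions turned for COL1A1 without HuCCT1/CD90- replicate 3 (log2 difference -0.043, and up to 0.18 with another library left out), for COL9A3 without HuCCT1/CD90+ replicate 3 (-0.0057, and up to 0.46), for the COL4A5 to COL4A6 ratio with a pseudocount of 5 RPM (-0.19) and for the COL6A1 to COL6A3 ratio with 0.1 RPM (2.68); the cause was not tested. With a library left out the ratio differences ranged from -1.21 to -1.02 for COL4A1 to COL4A2, -2.48 to -2.15 for COL4A3 to COL4A4, 0.18 to 0.28 for COL4A5 to COL4A6, -0.98 to -0.60 for COL6A1 to COL6A2, -0.22 to -0.03 for COL6A1 to COL6A3 and 0.18 to 0.55 for COL9A2 to COL9A3. Depth limits the chains with few reads (COL1A2, COL3A1, COL4A1, COL4A2, COL4A3 and COL6A3), where a read more or less in a library moves the value.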

Other observations

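The order of the libraries within a line was uneven among the collagen chains. Of the 19 chains with a mean of at least 1 RPM, HuCCT1/CD90- replicate 1 was the lowest control library for 14 (73.7%), against 43.7% of the 12062 genes at that level, and HuCCT1/CD90- replicate 2 was the highest for 14, against 35.3% of all genes. In HuCCT1/CD90+, replicate 1 was the lowest for 11 chains, against 36.2% of all genes, and replicate 3 was the highest for 11, against 29.1%, and the lowest for 0, against 28.5%. These counts are a description, and the chains share their libraries.

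A few rows stand next to the naming pattern. EMID2, an older symbol of COL26A1, had 0 reads in each HuCCT1/CD90- library and 2, 0 and 1 in HuCCT1/CD90+. The pseudogene COL6A4P1 also had 0 reads in each control and 2, 0 and 1 in HuCCT1/CD90+, and COL6A4P2 had 2 reads in 1 control library. COL4A3BP, which is no collagen chain but the ceramide transfer protein, was at 30.9 against 56.0 RPM, 1.81-fold higher (limma adjusted p = 0.041), and its symbol starts like that of the chain COL4A3.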
